A study of Rattus norvegicus with 12 samples.

Results

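The comparison described here set the renal cortex of 3 vehicle rats killed under isoflurane against that of 3 vehicle rats killed under a CO2-O2 mixture, 6 of the 12 rats of the series, chosen by their labels. All were male Sprague-Dawley rats, bought at 5 weeks of age, kept on 12 h of light and 12 h of dark, and dosed for 4 weeks. The vehicle isoflurane rats and the vehicle CO2-O2 rats were given water and differed in the gas breathed while they were bled, 24 h after the last dose: isoflurane, or CO2 and O2 at 4 to 1. The remaining 6 rats were given tert-butyl alcohol (TBA) at 1000 mg/kg/day, 3 of them killed under isoflurane and 3 under CO2-O2. Each rat's cortex RNA was read on 1 one-colour array, and the time of day of the kills is not given in the sources used here.

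Isoflurane is a halogenated ether that acts on inhibitory receptors and on tandem-pore potassium channels, whereas a high concentration of CO2 acidifies the blood and stimulates breathing and sympathetic outflow. Kidney cells also run a circadian clock, a feedback loop in which BMAL1 with CLOCK or NPAS2 binds E-box sequences and activates the Per, Cry, Nr1d, Ciart and Dbp genes. The PER and CRY proteins then inhibit the activators, while NR1D1 and NR1D2 repress Bmal1 through ROR elements. Activators and their targets therefore peak at different times of day, and the loop drives daily rhythms of many transport genes of the tubule.

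Promoters of 3 clock genes are shown first, from RefSeq on the GRCr8 assembly. Bmal1 had the most negative difference among named genes called. Ciart and Per2 had positive differences and were not called. Each runs 5′ to 3′ on the strand of the gene, from 250 bases before to 50 bases after the gene start. Capitals mark a ROR half-site (AGGTCA), an E-box (CACGTG), a variant E-box (CACGTT) or a D-box (TTATGTAA), each searched on both strands. The Bmal1 promoter lies at chr1:176766078-176766377 on the plus strand, that of Ciart at chr2:186112197-186112496 on the minus strand and that of Per2 at chr9:99496944-99497243 on the minus strand.
Bmal1: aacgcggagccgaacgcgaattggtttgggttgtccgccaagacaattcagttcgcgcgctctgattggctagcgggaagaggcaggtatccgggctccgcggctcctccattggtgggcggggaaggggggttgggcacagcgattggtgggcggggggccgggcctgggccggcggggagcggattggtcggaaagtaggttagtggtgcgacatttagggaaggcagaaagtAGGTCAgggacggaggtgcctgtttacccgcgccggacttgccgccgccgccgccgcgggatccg
Ciart: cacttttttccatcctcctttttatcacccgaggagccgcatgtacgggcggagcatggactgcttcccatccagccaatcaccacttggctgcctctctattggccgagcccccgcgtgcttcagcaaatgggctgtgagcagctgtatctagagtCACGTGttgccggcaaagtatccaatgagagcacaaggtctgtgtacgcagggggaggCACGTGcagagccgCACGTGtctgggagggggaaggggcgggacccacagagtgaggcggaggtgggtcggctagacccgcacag
Per2: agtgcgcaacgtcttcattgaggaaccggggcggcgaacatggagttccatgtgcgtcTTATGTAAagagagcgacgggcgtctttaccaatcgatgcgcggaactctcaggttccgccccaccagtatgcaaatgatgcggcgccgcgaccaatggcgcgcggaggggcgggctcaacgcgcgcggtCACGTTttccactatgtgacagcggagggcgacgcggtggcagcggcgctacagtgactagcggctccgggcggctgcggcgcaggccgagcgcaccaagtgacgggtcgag
The Bmal1 window held a ROR half-site that starts at position -15 from the gene start. The Ciart window held 3 E-boxes, at -93, -35 and -21, and the Per2 window held a D-box at -192 and a variant E-box at -62. None of these matches overlapped another. The window of Per3, the only repressor called, held none of these motifs and is not shown. Over all 33469 promoters of this length, 16.18% held a ROR half-site, 6.42% an E-box, 4.83% a variant E-box and 0.89% a D-box. Of the 21 clock genes in the promoter search, 17 had a promoter in the table; an E-box was found for 4 genes (Ciart, Bhlhe40, Tef and 1 of 2 Nr1d1 promoters) and a ROR half-site for 3 (Bmal1, Nr1d2 and Usp2). A match is a description of these letters only, and nothing follows from it about which factor was bound.

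Between 62.3% and 71.0% of 61657 probes were well above background on each vehicle array, and an array's values correlated with those of its own group at 0.9928 to 0.9951 on average. Levels below are log2 of the processed signal minus the array's 75th percentile, so 0 is the signal of that percentile. Levels of different probes cannot be set against each other. Differences are isoflurane minus CO2-O2, with the standard error (SE) of a limma fit and n = 3 rats in each group. A feature (a gene with a symbol, or an accession without one) was called at an adjusted p under 0.05 over all features tested. The 3 vehicle isoflurane arrays shared slide 2 and scan day 2, and the 3 vehicle CO2-O2 arrays shared slide 1 and scan day 1. Anesthetic, slide and scan day therefore cannot be told apart within the vehicle rats. The TBA CO2-O2 rats had arrays on both slides (rats 1 and 2 on slide 2, rat 3 on slide 1), and the difference between those rats is given below beside the results; with 1 rat on slide 1 it also holds the difference between rats.

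Of 29256 features tested, 11597 of them with a symbol, 32 (0.109%) were called between the isoflurane and the CO2-O2 rats. At that share a list of 20 to 33 genes with none called says little about the list. Of these 17 were higher (0.0581% of all features) and 15 lower (0.0513%), 19 had a symbol, and 11 differed at least 2-fold. In all 32 the 3 isoflurane values lay on 1 side of the 3 CO2-O2 values; over all features the groups were apart with isoflurane above in 15.0% and with isoflurane below in 14.4%. With median scaling of the arrays 17 were higher and 38 lower. At an unadjusted p under 0.05 there were 5522 features, 18.9% of those tested. The number called rested on few rats: it was 0 without isoflurane rat 2, 1, 2 and 0 without CO2-O2 rat 1, 2 or 3, 0 without TBA isoflurane rat 3, which entered only through the shared estimate of the spread, and 104 without TBA CO2-O2 rat 3. Without isoflurane rat 1 or 3 it was 16 or 18, and without TBA isoflurane rat 2 it was 17.

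The clock gene Bmal1, which encodes the DNA-binding activator of the loop, fell the most among called genes. Its level was -2.68, -3.03 and -2.44 in the isoflurane rats, against -0.54, -0.53 and 0.22 in the CO2-O2 rats. The groups were far apart, with the highest isoflurane value well below the lowest CO2-O2 value. The difference was -2.44 ± 0.30 (limma adjusted p = 0.0291), a level 5.41-fold lower under isoflurane, and both of its probes were lower (-2.44 and -2.15). Npas2, which can replace Clock as the partner of Bmal1, had levels of -1.73, -2.34 and -1.63 under isoflurane, against -0.90, -1.21 and -0.61 under CO2-O2. Its difference of -1.00 ± 0.20 did not pass (adjusted p = 0.0756), the groups did not overlap, and its second probe gave 0.05. Clock itself gave -0.25 ± 0.11 (adjusted p = 0.244) and Bmal2, a paralog of Bmal1, 0.27 ± 0.19 (adjusted p = 0.458). Of the 4 clock activators tested 1 fell and 3 had negative differences. Their median was -0.62 (-0.61 in TBA rats), against 0.01 over all features. All 4 were well above background on all 6 vehicle arrays, as were 27475 of the 29256 features tested.

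Among the repressors, Per3, a period protein of the inhibitory limb, rose. Its level was -1.22, -1.22 and -1.23 in the isoflurane rats, against -1.81, -1.77 and -1.88 in the CO2-O2 rats. The values within each group were close to each other, and the difference was 0.60 ± 0.08 (adjusted p = 0.0349), 1.51-fold. All 5 Per3 probes were higher, by 0.60 to 1.26. Per2, the period gene whose promoter is shown above, had levels of 1.27, 1.63 and 1.30 under isoflurane, against 0.27, 0.64 and 0.29 under CO2-O2. Its difference of 1.00 ± 0.15 did not pass (adjusted p = 0.0539) although the groups did not overlap. Cry1, a cryptochrome that inhibits the activators, gave 1.00 ± 0.21 (adjusted p = 0.0776) and Cry2 gave 0.39 ± 0.08 (adjusted p = 0.0811). Ciart, a repressor with a strong daily rhythm in other tissues, had levels of -0.63, -0.70 and -0.58 under isoflurane, against -2.67, -2.95 and -3.64 under CO2-O2. The isoflurane rats were all higher and closer together, and the difference of 2.45 ± 0.59 did not pass in the fit (adjusted p = 0.0980). In the TBA CO2-O2 rats Ciart read -5.77 and -4.65 on slide 2 and -3.01 on slide 1, so its spread in the fit came in part from those rats.

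Per1, the light- and hormone-responsive period gene, gave 1.15 ± 0.53 (adjusted p = 0.274); CO2-O2 rat 2 read -3.46, against -1.58 and -1.67 in CO2-O2 rats 1 and 3, and without it the difference was 0.54. The nuclear receptor genes that repress Bmal1 gave 0.27 ± 0.35 for Nr1d1 (adjusted p = 0.715) and 0.69 ± 0.19 for Nr1d2 (adjusted p = 0.119). Nfil3, which represses D-box genes, gave -0.75 ± 0.34 (adjusted p = 0.268). Bhlhe40, an E-box repressor, gave 0.00 ± 0.23 (adjusted p = 0.995). The casein kinases that mark PER for breakdown gave -0.16 ± 0.06 for Csnk1d (adjusted p = 0.228) and 0.23 ± 0.15 for Csnk1e (adjusted p = 0.426). Of the 13 repressor genes tested, all well above background on all 6 vehicle arrays, 1 rose, none fell and 10 had positive differences. In 7 of them isoflurane lay above CO2-O2 without overlap, against 15.0% of all features. The median over the 13 genes was 0.39, and 0.20 in TBA rats.

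The output genes of the clock, which carry its rhythm to other genes, all had positive differences, 14 of 14, with a median of 0.58, and none was called. The median was 0.29 without CO2-O2 rat 2 and 0.35 without isoflurane rat 2, and in TBA rats it was 0.14, with 11 of 14 positive. Groups were apart with isoflurane above in 6 of the 14, against 15.0% of all features. Of the 14, 13 were well above background on all 6 vehicle arrays. Dbp, a D-box activator, had levels of 6.49, 6.58 and 6.47 under isoflurane, against 5.57, 5.75 and 4.91 under CO2-O2, a difference of 1.10 ± 0.36 (adjusted p = 0.160) with all 4 probes higher. Tef, a D-box activator like Dbp, gave 0.59 ± 0.14 (adjusted p = 0.0962), Usp2, a deubiquitinase driven by the clock, 0.89 ± 0.20 (adjusted p = 0.0890) and Wee1, the kinase that delays mitosis, 0.59 ± 0.11 (adjusted p = 0.0711). Lpin1, a phosphatidate phosphatase, had a value of 2.02 that came from 1 array: isoflurane rat 2 read -0.11, against -4.83 and -5.46 in isoflurane rats 1 and 3 and -5.72 to -5.30 in the CO2-O2 rats.

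**Figure D1:**
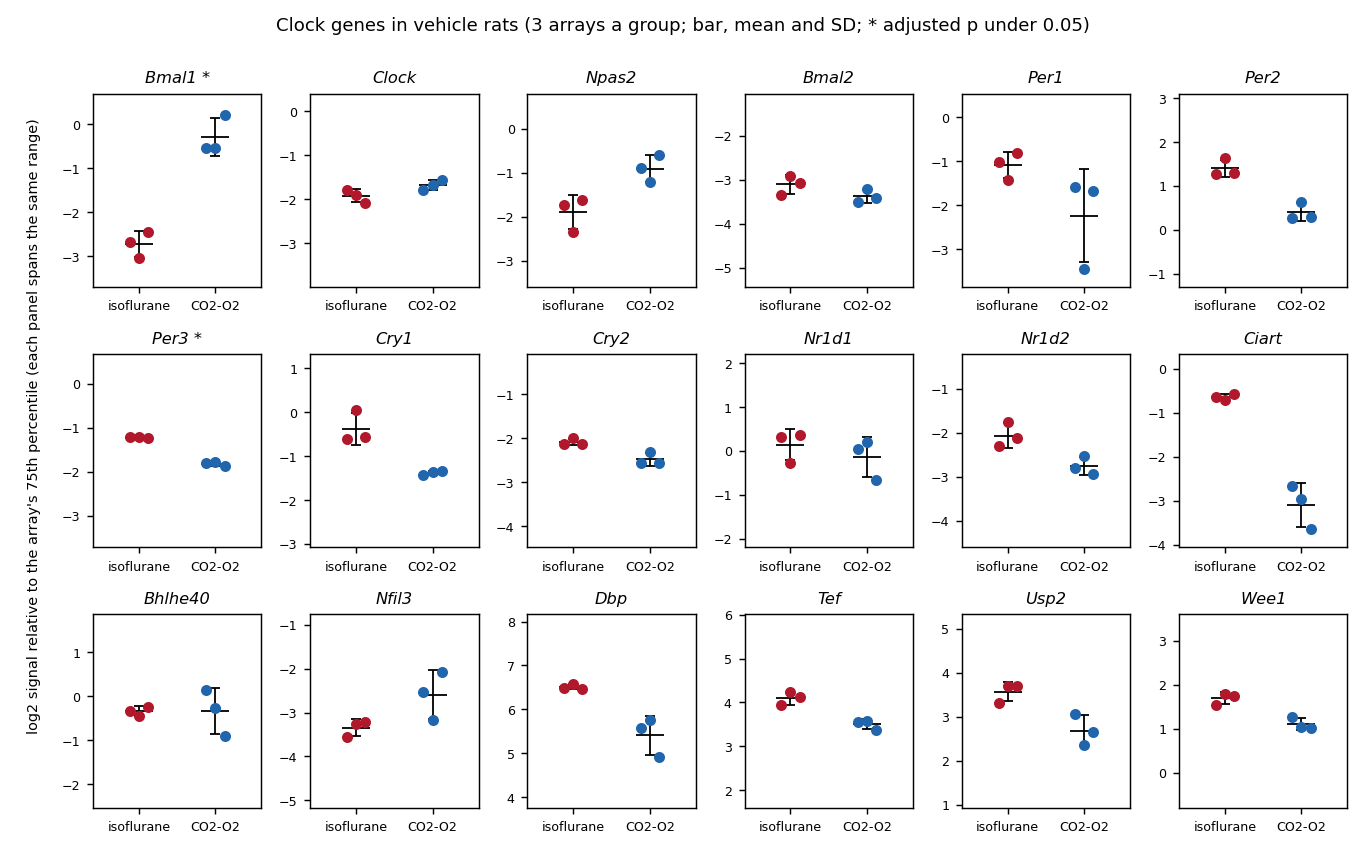
Levels of 18 clock genes (log2 signal relative to the 75th percentile of each array) in 3 isoflurane and 3 CO2-O2 vehicle rats, 1 point per rat, with the mean and SD as bars. Bmal1 lies lower under isoflurane (-2.72 against -0.28 on average) and Per3 higher (-1.22 against -1.82), and these are the only 2 of the 18 that were called.

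Outside the clock 9 genes rose. Sik1, a salt-inducible kinase whose gene responds to cAMP and CREB, had levels of -1.01, -0.65 and -0.89 in the isoflurane rats, against -1.59, -1.82 and -1.72 in the CO2-O2 rats, a difference of 0.87 ± 0.12 (adjusted p = 0.0349). Stk35, a nuclear kinase, had levels of -1.38, -1.28 and -1.31 under isoflurane, against -2.02, -2.03 and -2.08 under CO2-O2, and its difference of 0.72 ± 0.07 had the lowest adjusted p reached by any feature, 0.0164, shared with Slc34a2 and TC613235. Both Stk35 probes were higher, by 0.30 and 0.72. Abhd16a, a lipase of phosphatidylserine, had the highest difference, 1.11 ± 0.16 (adjusted p = 0.0470), with levels of 5.26, 4.79 and 4.50 under isoflurane, against 3.81, 3.62 and 3.80 under CO2-O2. The isoflurane rats were all above the CO2-O2 rats in these 3 genes. Sik1 and Abhd16a each rested on 1 tested probe.

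Shbg, which encodes sex hormone-binding globulin, rose by 0.80 ± 0.10 (adjusted p = 0.0319), and its second probe gave 0.14. Myrf, a membrane-bound transcription factor, rose by 0.61 ± 0.08 (adjusted p = 0.0291), and Tspan4, a tetraspanin of migrating cells, by 0.61 ± 0.09 (adjusted p = 0.0470). Cdk18, a cyclin-dependent kinase, rose by 0.54 ± 0.06 (adjusted p = 0.0291). Its 3 isoflurane values of -0.48, -0.47 and -0.54 and its 3 CO2-O2 values of -1.08, -1.04 and -1.00 were each close together. Wdr72, a vesicle protein whose loss in patients causes distal renal tubular acidosis, rose by 0.47 ± 0.06 (adjusted p = 0.0354). Tecpr1, which takes part in autophagy, rose by 0.46 ± 0.06 (adjusted p = 0.0436) with 3 of 3 probes higher. These rises were between 1.37-fold and 1.74-fold. Those of Tspan4, Cdk18 and Wdr72 each rested on 1 tested probe.

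Besides Bmal1, 8 genes fell. Tnfrsf11b, which encodes osteoprotegerin, the decoy receptor for the bone-resorbing ligand RANKL, had levels of -1.46, -1.08 and -1.24 in the isoflurane rats, against 1.17, 1.17 and 1.07 in the CO2-O2 rats. The groups lay far apart, and the difference was -2.40 ± 0.35 (adjusted p = 0.0470), 5.27-fold. Slc34a2, a sodium-phosphate cotransporter best known from intestine and lung, had levels of -4.88, -4.73 and -4.52 under isoflurane, against -2.82, -2.98 and -2.90 under CO2-O2, a difference of -1.81 ± 0.17 (adjusted p = 0.0164) that was -1.00 with normexp background. C3h15orf48, the rat counterpart of a human gene for a small mitochondrial protein, had levels of -2.83, -3.68 and -3.78 under isoflurane, against -1.71, -1.60 and -1.76 under CO2-O2, a difference of -1.74 ± 0.26 (adjusted p = 0.0470). Isoflurane rat 1 was nearer to the CO2-O2 rats than isoflurane rats 2 and 3 in that gene, and no group overlapped in any of the 3. Tnfrsf11b, Slc34a2 and C3h15orf48 each rested on 1 tested probe, as did Ten1 and Jag1 below.

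Ten1, a subunit of the CST complex at telomeres, fell by 1.29 (SE 0.16, adjusted p = 0.0291), with levels of -1.62, -1.54 and -1.27 under isoflurane, against -0.16, -0.30 and -0.11 under CO2-O2. Slc45a3, a member of a sugar transporter family, fell by 1.00 (SE 0.14, adjusted p = 0.0349) with 3 of 3 probes lower. Jag1, a ligand of Notch receptors, had levels of -0.03, 0.11 and 0.21 under isoflurane, against 0.98, 0.92 and 0.97 under CO2-O2, and fell by 0.86 (SE 0.11, adjusted p = 0.0335). Wsb1, a substrate adaptor of a ubiquitin ligase, fell by 0.78 (SE 0.10, adjusted p = 0.0335) and Arhgap22, which inactivates a small GTPase, by 0.62 (SE 0.09, adjusted p = 0.0487), each with both probes lower. Of the 13 called features without a symbol, TC577107 had levels of -2.99, -2.60 and -2.89 under isoflurane, against -4.28, -4.64 and -4.83 under CO2-O2 (1.76 ± 0.21, adjusted p = 0.0291). C_CA_A0137 was higher (1.90 ± 0.26, adjusted p = 0.0349) and was well above background on 2 of the 3 CO2-O2 arrays. With normexp background TC577107 gave 0.69 and C_CA_A0137 gave 0.67, and in 10 of the 32 called features, Cdk18 (0.29) and Wdr72 (0.29) among them, the difference was smaller by over 1.5 times. ENSRNOT00000001205 gave -1.15 ± 0.17 (adjusted p = 0.0470).

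**Figure D2:**
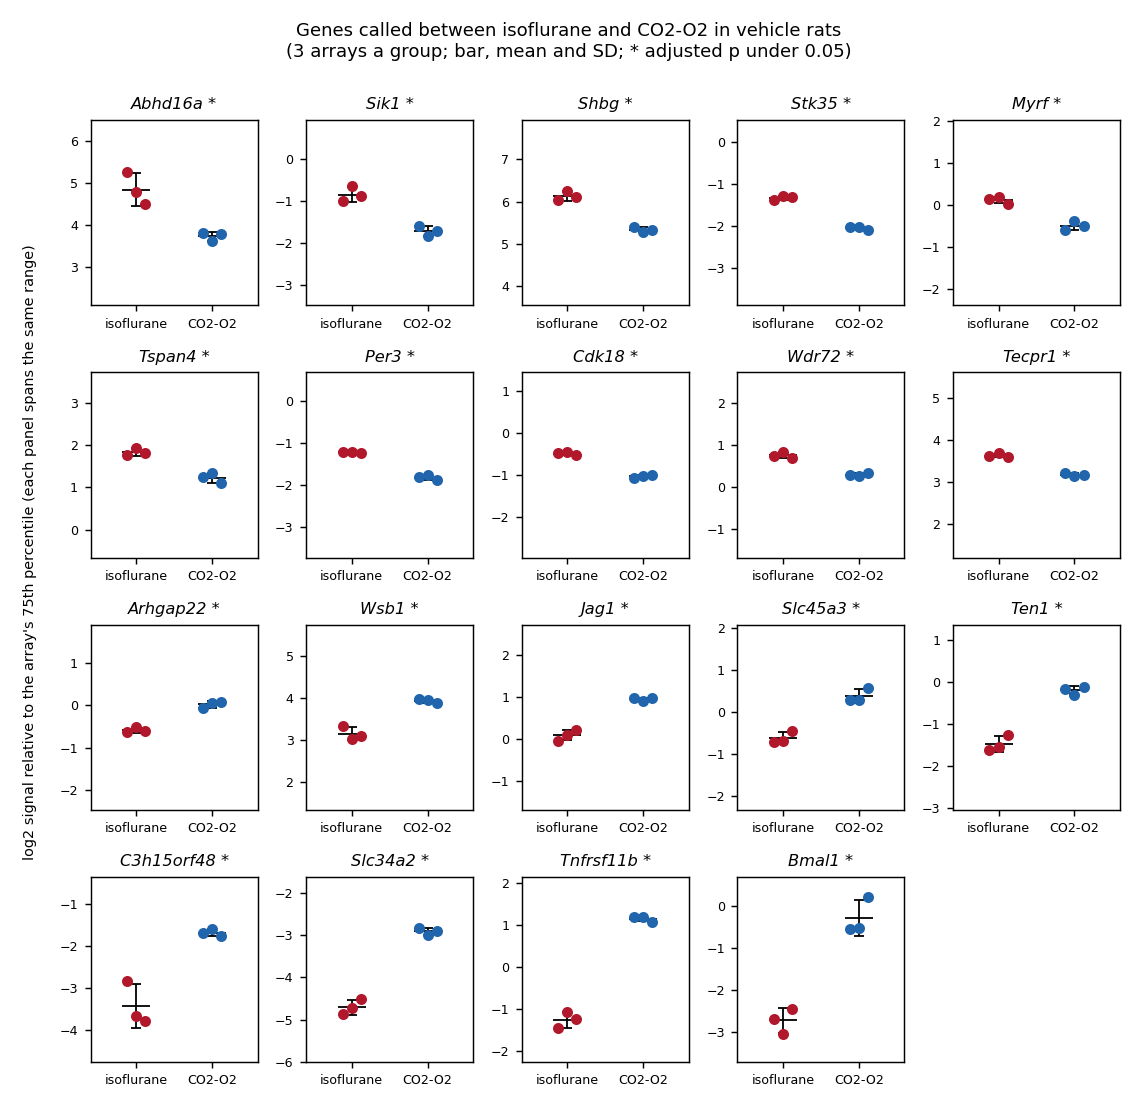
Levels of the 19 called genes with a symbol (log2 signal relative to the 75th percentile of each array) in 3 isoflurane and 3 CO2-O2 vehicle rats, 1 point per rat, with mean and SD. The 10 genes that rose come first, from Abhd16a (difference 1.11) to Tecpr1 (0.46), and then the 9 that fell, ending with Bmal1 (-2.44), and in none do the groups overlap.

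Of 11 genes of CREB signalling and the salt-inducible kinases, Sik1 alone was called, the list's median was 0.04, and at an unadjusted p under 0.05 there were 3 higher, Sik1 included, and 1 lower. Ppargc1a, the coactivator of mitochondrial genes that CREB induces, had levels of -0.34, -0.28 and -0.28 under isoflurane, against -0.68, -0.83 and -0.67 under CO2-O2. Its difference of 0.43 ± 0.07 did not pass (adjusted p = 0.0594). In TBA rats Ppargc1a gave -0.31, with the groups apart the other way. Crem, a cAMP-responsive modulator, gave 0.46 ± 0.13 (adjusted p = 0.124) with 7 of 7 probes higher, and Atf1, a relative of CREB, -0.28 ± 0.08 (adjusted p = 0.124).

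Genes known to respond to acute stress were read next. Among 23 tested immediate early genes, transcribed within minutes of a stimulus, none was called, 7 had positive and 16 negative differences, and the median was -0.11. Fos gave 0.25 ± 0.19 (adjusted p = 0.506), Egr1 -0.19 ± 0.24 (adjusted p = 0.704) and Atf3 -0.38 ± 0.35 (adjusted p = 0.573). Zfp36, which destabilises cytokine mRNAs, had levels of -1.81, -2.42 and -1.79 under isoflurane, against -2.99, -2.94 and -3.36 under CO2-O2 (1.09 ± 0.25, adjusted p = 0.0904), and Klf4, an epithelial transcription factor, gave -0.45 ± 0.11 (adjusted p = 0.0928). Of 27 hypoxia response genes none was called and the median was 0.05; Vegfa, the endothelial growth factor, gave -0.02 ± 0.08 (adjusted p = 0.908) and Ankrd37, a HIF target, 0.61 ± 0.12 (adjusted p = 0.0711). Of 20 heat shock proteins none was called (median -0.05), with the cochaperone Dnajb9 at 0.45 ± 0.09 (adjusted p = 0.0722) and the small heat shock protein Cryab at -1.14 ± 0.38 (adjusted p = 0.163). Of 16 NF-kB and cytokine genes none was called (median -0.21, and -0.08 without isoflurane rat 3), nor of 19 genes that respond to glucocorticoids (median 0.26, and 0.02 without CO2-O2 rat 2).

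CO2 loads the body with acid, and the acid-base genes of the kidney were listed for that reason. Of 27 acid-base and ammoniagenesis genes none was called, 19 had positive and 8 negative differences, and the median was 0.11 (0.06 without isoflurane rat 2, and -0.03 in TBA rats). Groups were apart with isoflurane above in 9 of the 27, against 15.0% of all features. The membrane-bound carbonic anhydrases Car4 and Car12, which interconvert CO2 and bicarbonate, gave 0.55 ± 0.12 (adjusted p = 0.0811) and 0.40 ± 0.09 (adjusted p = 0.0890). Car4 read 5.80, 5.72 and 5.45 under isoflurane, against 5.04, 5.23 and 5.05 under CO2-O2. Pck1, which makes phosphoenolpyruvate for gluconeogenesis, gave 0.28 ± 0.08 (adjusted p = 0.131), and Got2, the mitochondrial aspartate aminotransferase, 0.26 ± 0.06 (adjusted p = 0.0806). Markers of the intercalated cells had positive differences in 12 of 12, with a median of 0.18 and none called. Among them were Insrr, an alkali sensor (0.58 ± 0.16, adjusted p = 0.121), and the ammonia channel Rhbg (0.28 ± 0.12, adjusted p = 0.239). In TBA rats 3 of the 12 were positive and 9 negative, with a median of -0.04. Slc4a1, Slc26a4, Atp6v1b1, Atp6v1g3, Rhbg and Rhcg are in both the intercalated cell and the acid-base list, so the counts of these lists are not separate.

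Known targets of volatile anesthetics were mostly not measurable in this tissue. Of 28 listed, 11 were tested and 17 were dim on the vehicle arrays. None of the 11 was called (median 0.04); the tandem-pore potassium channels Kcnk1 and Kcnk5 gave -0.35 ± 0.09 (adjusted p = 0.115) and 0.36 ± 0.17 (adjusted p = 0.284). Of 17 tested genes in the list of cytochrome P450 families 1 to 3 none was called (median 0.03). That list also holds their reductase and the receptors Nr1i2, Nr1i3 and Ahr. Cyp2j3, an arachidonate epoxygenase, had levels of -2.07, -2.24 and -1.82 under isoflurane, against -1.07, -1.19 and -1.08 under CO2-O2, without overlap, and its difference of -0.93 ± 0.15 did not pass (adjusted p = 0.0573). Por, the reductase that serves the P450 enzymes, gave 0.58 ± 0.13 (adjusted p = 0.0897).

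Genes of translation, metabolism and growth followed, with none called. Of 26 ribosomal protein genes 25 had negative differences, with a median of -0.15, and isoflurane lay below CO2-O2 without overlap in 21, against 14.4% of all features. In TBA rats 25 of the 26 were positive (median 0.03), and in vehicle rats the median was -0.05 with slide as a fixed term and -0.08 with quantile normalization. Rpl35 read 7.87, 7.91 and 7.88 under isoflurane, against 8.10, 8.17 and 8.10 under CO2-O2 (-0.24 ± 0.06, adjusted p = 0.0972), and Rps3 gave -0.21 ± 0.05 (adjusted p = 0.106). These differences were small, and the list's slide difference within TBA CO2-O2 rats also had a negative median, -0.08. In the list of PPAR-alpha targets, which act in fatty acid breakdown, 28 of 33 members had negative differences (median -0.22, and -0.02 in TBA rats); Angptl4, an inhibitor of lipoprotein lipase, gave -0.95 ± 0.27 (adjusted p = 0.130) and the lipid droplet coat protein Plin2 -0.42 ± 0.12 (adjusted p = 0.120). In that list Acot1, a thioesterase of acyl-CoA, had a value that came from 1 array: it read -7.19 in isoflurane rat 3, against 4.84 to 5.25 in the other vehicle rats. Of 31 subunits and carriers of oxidative phosphorylation the median was -0.04, with cytochrome c (Cycs) at -0.39 ± 0.08 (adjusted p = 0.0826) and the ATP synthase subunit Atp5f1b at 0.27 ± 0.06 (adjusted p = 0.0890). Of 20 growth hormone and IGF genes, Stat5b, the transcription factor downstream of the hormone's receptor, gave 0.50 ± 0.10 (adjusted p = 0.0707) and Irs2, an insulin receptor substrate, -0.75 ± 0.16 (adjusted p = 0.0826). In TBA rats Stat5b gave -0.34, with the groups apart the other way, and Irs2 gave 0.04, with overlap. Dhcr7, the last enzyme of cholesterol synthesis, gave -0.69 ± 0.16 (adjusted p = 0.0890).

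Markers of cell types were read next. In whole tissue fewer cells of a type and less RNA per cell cannot be told apart. Of 14 markers of the S1-S2 proximal tubule 13 were tested, all well above background on all 6 vehicle arrays. Tested features had already passed a background filter, and 9 of 10 liver markers were tested and as well detected. Detection therefore does not show what tissue the samples held. The S1-S2 markers had a median difference of 0.07. The amino acid transporter Slc6a19 gave 0.39 ± 0.08 (adjusted p = 0.0826) and Gatm, an enzyme of creatine synthesis, 0.66 ± 0.22 (adjusted p = 0.167). Markers of the S3 segment of the proximal tubule, found in the outer stripe and the medullary rays, had negative differences in 10 of 11, with a median of -0.38 and none called; in TBA rats 6 of 11 were negative, with a median of -0.01. The mean over those markers was 1.20, 1.45 and 1.56 in the isoflurane rats, against 1.89, 1.90 and 2.14 in the CO2-O2 rats. The glucose transporter Slc5a1 gave -0.72 ± 0.17 (adjusted p = 0.0890) and the flippase Atp11a -0.37 ± 0.11 (adjusted p = 0.126). Within the TBA CO2-O2 rats the same markers had a median slide 2 minus slide 1 difference of 0.42, opposite in sign. Renin-angiotensin genes had a median of -0.41 over 9 members, -0.15 without isoflurane rat 3, -0.14 with the mean of a gene's probes and 0.01 in TBA rats. The converting enzyme Ace gave -0.78 ± 0.23 (adjusted p = 0.137) in vehicle rats and 0.55 in TBA rats, where the groups were apart the other way.

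Blood cell markers were also lower on the whole, with none called. Red blood cell transcripts had negative differences in 7 of 8 (median -0.49, and -0.15 in TBA rats), and the mean over the list was 2.83, 3.05 and 2.79 under isoflurane, against 3.30, 3.37 and 3.37 under CO2-O2. Hba-a1 and Hbb-b1, alpha and beta chains of haemoglobin, gave -0.49 ± 0.15 (adjusted p = 0.141) and -0.57 ± 0.18 (adjusted p = 0.152). Globin genes are near-identical paralogs, so single members are uncertain. Markers of macrophages and lymphocytes had negative differences in 11 of 12 (median -0.35, -0.18 without isoflurane rat 3 and -0.20 in TBA rats), of which 9 were well above background on all 6 vehicle arrays. The T cell receptor chains Cd3g and Cd3e gave -0.77 ± 0.20 (adjusted p = 0.116) and -0.85 ± 0.27 (adjusted p = 0.152). The mean over the immune list overlapped between groups, at -0.05, -0.29 and -0.36 under isoflurane, against 0.13, -0.05 and 0.34 under CO2-O2. Genes of fibroblasts and matrix had medians of -0.22 and -0.24 (-0.11 and -0.08 without isoflurane rat 2), with Pdgfra, a growth factor receptor of fibroblasts, at -0.43 ± 0.11 (adjusted p = 0.110), the fibrillar collagen Col3a1 at -0.50 ± 0.16 (adjusted p = 0.155) and Col4a4, of basement membrane, at -0.33 ± 0.08 (adjusted p = 0.0974). Of the skeletal muscle markers, 7 of 12 were tested, with a median of 0.15 that was -0.73 with slide as a fixed term. Acta1, skeletal actin, gave 1.03 ± 0.20 (adjusted p = 0.0722; 0.24 with normexp background) and Myl11, a myosin light chain, -0.73 ± 0.28 (adjusted p = 0.211). The part of these shifts in the calls was not tested.

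**Figure D3:**
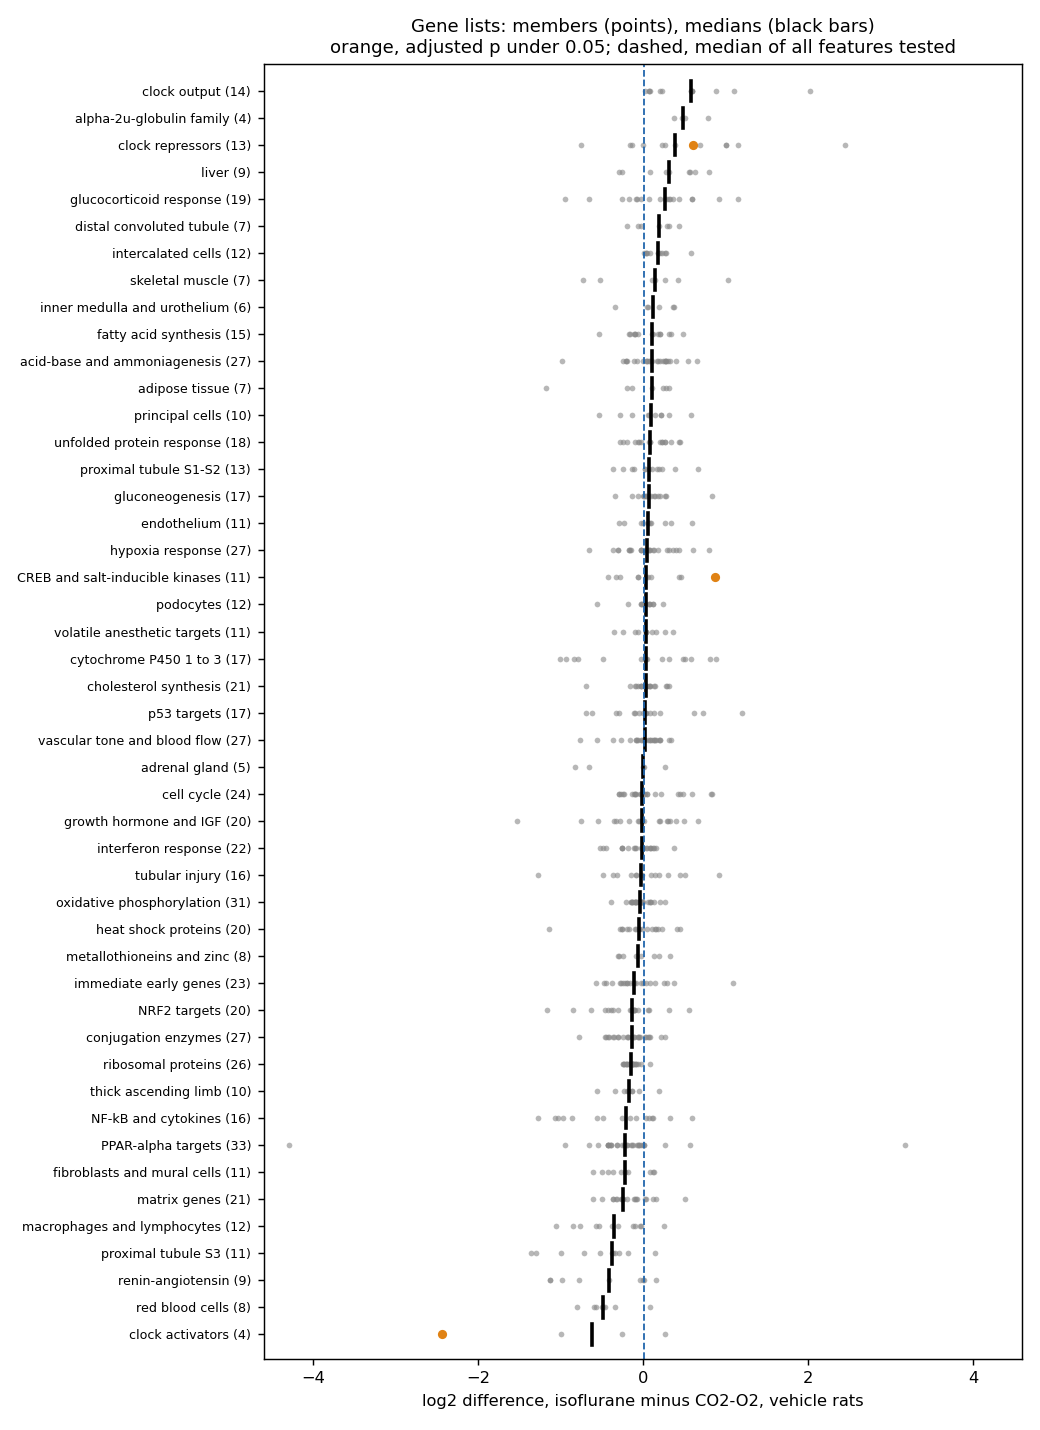
Log2 differences (isoflurane minus CO2-O2, vehicle rats) of the tested members of 47 gene lists, 1 row per list with the number tested in brackets, ordered by the list's median (black bar). Medians run from 0.58 for clock output to -0.62 for clock activators around the median of 0.01 over all features (dashed); the clock output median was 0.29 without CO2-O2 rat 2, and 3 members were called (orange): Per3, Sik1 and Bmal1.

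The same anesthetics were compared in the TBA rats, whose arrays do not enter the differences above. Those arrays do enter the spread that the calls used, so the counts below in TBA rats are not independent of the calls. Of the 32 called features 23 had the same sign there, against 54.8% of all features, 15 were apart the same way without overlap, against 8.73% of all features, and 1, TC613235, was itself called in the TBA rats, where 2 features were called in all. TC613235 read -0.95, -1.07 and -1.04 in the vehicle isoflurane rats, against -1.92, -1.74 and -2.11 in the vehicle CO2-O2 rats, and its difference was 0.91 ± 0.09 in vehicle rats and 1.14 in TBA rats. Bmal1 was lower under isoflurane in both, with differences of -2.44 in vehicle rats and -1.68 in TBA rats, where it read -0.68, -0.86 and -0.84 under isoflurane, against 1.51, 0.82 and 0.32 under CO2-O2. Per3 gave 0.60 in vehicle rats and 0.53 in TBA rats, Stk35 0.72 and 0.54, Slc45a3 -1.00 and -0.67, and Wsb1 -0.78 and -0.55, all without overlap in either treatment. Of the clock genes that were not called, Npas2 gave -1.00 in vehicle rats and -0.98 in TBA rats, Ciart 2.45 and 2.32, Per2 1.00 and 0.75, Nr1d2 0.69 and 0.76, Tef 0.59 and 0.69 and Dbp 1.10 and 1.63. Other clock genes had smaller differences in TBA rats, where the groups overlapped: Usp2 gave 0.89 in vehicle rats and 0.28 in TBA rats, Cry2 0.39 and 0.08, Per1 1.15 and 0.24, and Cry1 1.00 and -0.11.

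The difference between the treatments was tested as an interaction, vehicle minus TBA. No feature passed by limma, with a lowest adjusted p of 0.0689, while 3553 features (12.1%) had an unadjusted p under 0.05, among them 23 of the 32 called. Abhd16a rose in vehicle rats by 1.11 and gave -0.92 in TBA rats, where it read 3.84, 3.74 and 3.63 under isoflurane, against 4.66, 4.57 and 4.72 under CO2-O2. Its groups were apart in opposite directions, and the interaction of 2.03 ± 0.23 did not pass (adjusted p = 0.0689). Ten1 gave -1.29 in vehicle rats and 0.41 in TBA rats (interaction -1.70 ± 0.22, adjusted p = 0.111). Tnfrsf11b gave -2.40 in vehicle rats and -0.41 in TBA rats (interaction -1.98 ± 0.49, adjusted p = 0.239), and Slc34a2 -1.81 and -0.26 (interaction -1.55 ± 0.24, adjusted p = 0.158). For Bmal1 the interaction was -0.76 (adjusted p = 0.499) and for Per3 0.06 (adjusted p = 0.856).

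**Figure D4:**
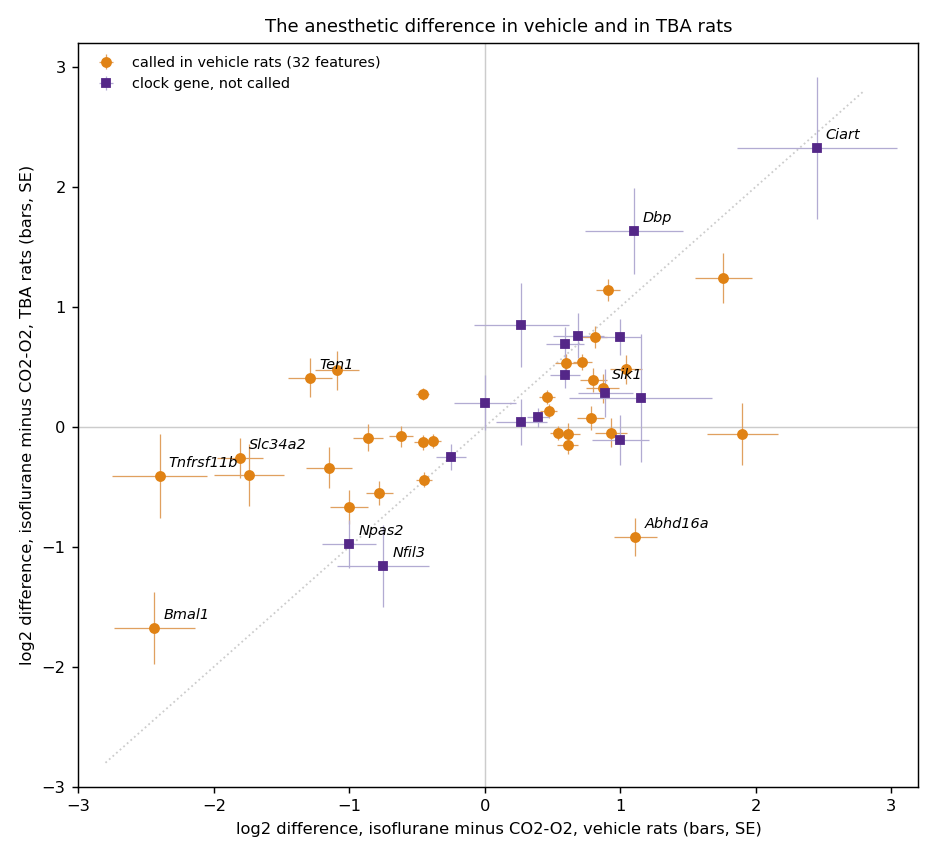
Log2 difference, isoflurane minus CO2-O2, in vehicle rats (x axis) and in TBA rats (y axis), with SE bars from the fit, for the 32 called features (orange) and 16 clock genes that were not called (purple); the dotted line marks equal differences. Npas2 and Ciart lie near the line, Bmal1 has the same sign on both axes with a smaller size in TBA rats, Dbp lies above the line, Tnfrsf11b and Slc34a2 near 0 on the y axis, and Abhd16a on the other side of 0.

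The slide and scan day moved with the anesthetic in vehicle rats, and the TBA CO2-O2 rats are the only group with arrays on both slides, 2 rats against 1, so their difference holds rat, slide and scan day together. In the 32 called features the slide 2 minus slide 1 difference in those rats had a median size of 0.14, against 0.83 for the anesthetic difference, on which these features were chosen. Over all features the median sizes were 0.15 for the slides and 0.14 for the anesthetics. In 16 of the 32 called features the slide difference had the same sign as the anesthetic difference. For Bmal1 the slide difference was 0.85, opposite in sign to its fall, and for Per3 it was 0.01. It was -2.20 for Ciart and -1.07 for Dbp, again opposite in sign to the anesthetic difference, from 2 arrays against 1. A fit with slide as a fixed term takes the slide difference of those 3 arrays off the anesthetic difference. In none of the 32 features was the slide difference the larger one. All 32 therefore had to keep their sign, which is no separate check. In that fit 34 features were called, 3 of them shared: Bmal1 (-3.28 ± 0.45, adjusted p = 0.0474), Arhgap22 (adjusted p = 0.0474) and TC577107 (adjusted p = 0.0356). With slide as a random block 3 features were called, all among the 32: TC613235, Stk35 and Slc34a2.

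**Figure D5:**
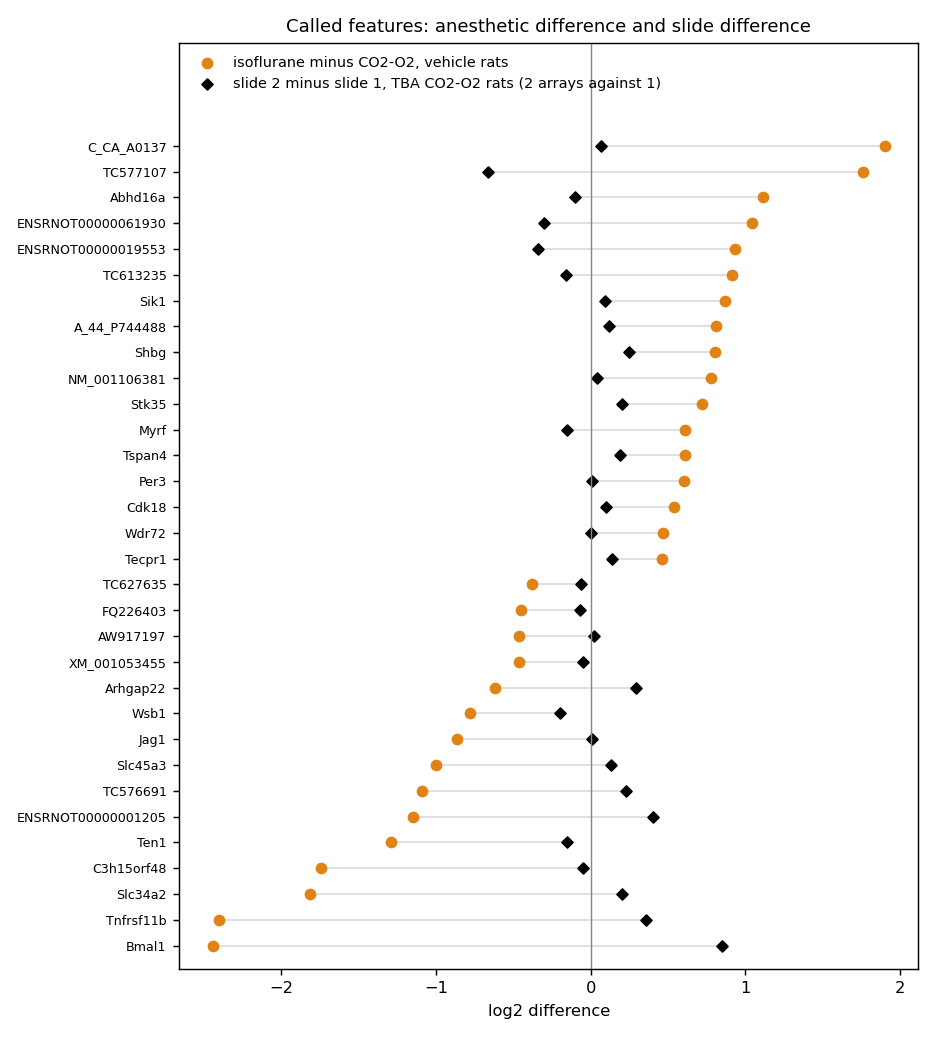
Log2 differences of the 32 called features: isoflurane minus CO2-O2 in vehicle rats (orange circles) and slide 2 minus slide 1 among the TBA CO2-O2 rats (black diamonds, 2 arrays against 1). The features were chosen for their circles, from -2.44 for Bmal1 to 1.90 for C_CA_A0137, so the figure gives the values side by side and does not compare their sizes.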

How the data were processed

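Total RNA from renal cortex (0.2 ug per rat, labelled with Cy3) was hybridised to one-colour Agilent arrays, per the labels' protocols. The deposited scanner files hold the processed intensity from Agilent Feature Extraction 10.7.1.1 (10.7 in the submitters' processing notes), which is background-subtracted and, per the file headers, carries no between-array normalization. The submitters' deposited series table holds a linear ratio of that intensity to the array's 75th percentile (column medians 0.101 to 0.107; the scale was found from the values, and no centring of genes was seen). Each of its columns matched (r of 0.9999 to 1.0) another replicate's scanner file in its group; rats are numbered as on the scanner files.

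Values analysed were log2 of the processed intensity minus the array's 75th percentile. Probes had to be well above background on all 3 arrays of either vehicle group; 28 probes with outlier flags were left out and 39765 kept. RefSeq names (GRCr8 table, names only) were found for 27460 of 61657 probes, 34197 had none, and the brightest probe stood for each gene, giving 29256 features. One mean per group was fitted to all 12 arrays with limma 3.58.1 in R 4.3.3 without covariates (degrees of freedom: 8 residual, 1.93 prior), using Benjamini-Hochberg adjustment and a threshold of 0.05. The fit was tested on simulated data. The labels call the rats biological replicates. With 3 arrays per group the number of arrays limits the precision.

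The comparison, its gene lists and the genes named were chosen with earlier results of these data known, so lists are described by counts and medians. Named genes were all called genes with a symbol, the clock activators and repressors with Dbp, Tef and Usp2, the preset genes Fos, Egr1, Atf3, Per1, Vegfa and Pck1, and the members of other lists with the highest moderated t; for space not all lists have a named member, and a few genes are not reported here. Of features without a symbol, up to 2 higher and 2 lower were named. Lpin1, Acot1, Alb, TC613235, XM_001053455 and TC576691 were named after their values were seen. Deviations of same-numbered rats of the 2 groups had correlations of -0.0325, 0.0258 and 0.0197, and those of differently numbered rats -0.0675 to 0.0593. The main fit did not pair them. A pairing with little effect over all features would not show in these values. Alternatives were other background, scaling, dim-probe and probe-summary choices, slide (statmod 1.5.0 for the random block), scan day and replicate blocks, fewer arrays, and each array left out.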

Additional observations from a re-analysis of the deposited data

Results flagged for a closer look

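In 4 called features the anesthetic groups were apart in vehicle rats and apart the other way in TBA rats. Abhd16a differed between the treatments by 2.03 (vehicle minus TBA, log2; interaction adjusted p = 0.0689), with a difference of 1.11 in vehicle rats and -0.92 in TBA rats. Myrf differed by 0.76 (adjusted p = 0.111), with 0.61 in vehicle rats and -0.15 in TBA rats. XM_001053455 differed by -0.72 (adjusted p = 0.0689), with -0.46 in vehicle rats and 0.27 in TBA rats. TC576691 differed by -1.56 (adjusted p = 0.111), with -1.09 in vehicle rats and 0.47 in TBA rats; it was well above background on 2 of the 3 vehicle isoflurane arrays. None passed the limma interaction test.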

How the results depend on the processing

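All 19 called genes with a symbol kept their sign under every alternative run, except that testing every probe on its own gives no value per gene (24 features higher and 18 lower). These genes were chosen on the same arrays and their vehicle groups were apart, so leaving out arrays could not turn a sign. The kept signs are therefore a description and lend the calls no support. The number called (17 higher, 15 lower) did not hold: it was 436 higher and 442 lower with normexp background, 57 and 47 with quantile normalization, 139 and 145 with a trend and robust spread, 2 and 1 with slide as a random block, 10 and 8 with the mean of a gene's probes, 0 and 0 with no filter on dim probes (more features tested), and 0 and 1 with the 6 vehicle arrays only (fewer samples). With the replicate block it was 0 and 0, on all 12 arrays or on the 6 vehicle arrays, and the lowest adjusted p among the 19 genes was 0.0524 and 0.226. Lower calls alone moved to 38 with median scaling and to 24 with probes well above background on all 6 vehicle arrays. Leaving out 1 array gave 0 to 69 higher and 0 to 35 lower, and no feature was called in all 12 of those fits. The vehicle minus TBA difference was called for 0 features, but for 7 with normexp, 30 with slide or scan day as a fixed term (the same fit here), 2 with a trend and robust spread and 0 to 6 with 1 array left out. The number of features or of samples differed in the settings where this is said, and no cause of these changes was tested.

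Sign turned only in genes that were not called: Bmal2 (-0.00 with normexp, -0.41 with slide or scan day fixed), Bhlhe40 (-0.02 with normexp, -0.00 with quantile, -0.05 with median scaling, -0.28 to 0.25 with 1 array left out), Csnk1d (0.06 with the mean of its probes), Csnk1e (-0.08, slide or scan day fixed), Fos (-0.04, normexp), Egr1 (0.31, slide or scan day fixed; -0.35 to 0.07 with 1 array left out), Atf3 (0.07, slide or scan day fixed) and Vegfa (0.03 with quantile, 0.05 with the mean of its probes, 0.06 with slide or scan day fixed, -0.09 to 0.04 with 1 array left out). Of 1316 list medians under alternatives, 133 moved by more than 1 SD between rats. Signal over background limits 1781 features that were not well above background on every array of both vehicle groups.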

Other observations

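Some gene groups separated rats within a group more than they separated the anesthetics. The alpha-2u-globulin family, urinary proteins of male rats with near-identical paralogs, had mean levels of -0.17, 1.05 and -1.44 in the isoflurane rats, against -1.02, -0.68 and -0.48 in the CO2-O2 rats, so the groups overlapped. The liver marker list had mean levels of 0.23, 0.76 and -0.49 under isoflurane, against -0.45, -0.10 and 0.16 under CO2-O2, and Alb read 1.67, 2.52 and 0.50 under isoflurane, against 0.49, 1.18 and 1.34 under CO2-O2. Isoflurane rat 2 was the highest and isoflurane rat 3 the lowest of the 6 vehicle rats in the mean of both lists. Among the segments of the distal nephron, the median difference was -0.17 for the thick ascending limb (9 of 10 markers negative), 0.19 for the distal convoluted tubule (4 of 7 positive) and 0.10 for principal cells (7 of 10 positive), with no marker called in any.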
